A study of Mus musculus with 8 samples.

Results

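Esr1, Esr2, Pgr, Gper1 and Prlr, the mouse genes of the classical estrogen, progesterone and prolactin receptors and of a membrane estrogen receptor, were taken by symbol from the deposited table of gene counts. They are 5 of the 54532 genes of the table, and all 5 were among the 15472 genes with enough counts to be tested. The estrogen receptors alpha and beta and the progesterone receptor are transcription factors that are switched on by a steroid ligand. GPER1 is a G protein-coupled receptor of the cell membrane that responds to estrogens, and the prolactin receptor is a cytokine receptor that signals through the kinase JAK2 and the transcription factors STAT5A and STAT5B. In the prostate, estrogen receptor alpha is best known from stromal and basal cells and estrogen receptor beta from epithelial cells, and prolactin is known as a growth signal for the gland.

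The genes were measured by bulk RNA-seq of prostates from 8 male NOD mice, an inbred strain with spontaneous autoimmune disease and inflammation of the prostate. The control group of 4 mice received the vehicle PBS, and the other 4 mice received etanercept, a soluble TNF receptor that traps TNF, at 4 mg/kg. Injections were given 2 times per week for 5 weeks, and all tissues were taken at an age of 30 weeks. Mice carry the number of the animal, with 1, 3, 65 and 69 in the control group and 17, 19, 50 and 52 in the treated group. The comparison asks whether blocking TNF was accompanied by a different expression of these receptors.

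Total counts lay between 13760669 in control 65 and 25178942 in control 1. All 10 genes of a prostate secretory epithelium list had counts in all 8 mice, and the most abundant of them varied widely. Sbp, the gene of the spermine-binding protein of the ventral prostate, was at 1547 CPM (counts scaled to a common library size with TMM factors) in control 1, 63887 in control 3, 15637 in control 65 and 225760 in control 69. In the etanercept-treated mice it was at 1618 CPM in 17, 174099 in 19, 180220 in 50 and 55954 in 52. High and low Sbp levels thus occurred in both groups. The labels do not say which lobes were taken, and whether dissection contributed was not tested.

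Another pair of libraries stood apart. Summed over 8 seminal vesicle genes, whose proteins are secreted by the gland beside the prostate, expression was 97204 CPM in etanercept 17 and 4001 CPM in control 69, against at most 668 CPM in the other 6 mice. In etanercept 17 this exceeded the sum of the prostate secretory list, which was 17194 CPM. The seminal vesicle sum of this mouse came almost entirely from Svs2, Svs5 (15522.5 CPM), Pate4 (9344 CPM) and Svs4 (2567 CPM). Svs6 was at 13.2 CPM there, and Svs1, Svs3a and Svs3b had 0 counts, so not all genes of the list were high. Svs2 was the most abundant of these genes, at 69757 CPM in etanercept 17, 2374 CPM in control 69 and 0 counts in control 1 and 3. Values of the receptor genes are therefore also given without control 69 and etanercept 17.

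Library profiles also leaned with exon length, at a Spearman's rho of −0.125, −0.113, −0.173 and −0.0246 in control 1, 3, 65 and 69 for values centred per gene. It was 0.0545, 0.112, 0.0294 and 0.124 in etanercept 17, 19, 50 and 52, so longer genes were slightly lower in all control and higher in all etanercept-treated mice. Prlr and Esr1 have the longest exon sequences of the receptor genes, at 15339 and 13661 bases, and values with this trend removed are given for them.

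Of the 5 receptor genes, 0 passed a test for a difference between the groups. With Benjamini-Hochberg adjustment, edgeR's quasi-likelihood test called 0 of the 15472 tested genes (0%) at the threshold of 0.05, and DESeq2's Wald test called 21 of 18329 genes (0.115%), none of which was a receptor gene or a gene of the pathway lists described further on. With an unadjusted p of 0.05 or less in edgeR, the etanercept group was higher for 2.99% of all tested genes and lower for 3.63%, and again 0 of the 5 receptor genes were among them. The groups did not overlap for 2.41% of all tested genes in the higher direction and 2.53% in the lower direction, and they overlapped for every receptor gene.

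Esr1 (ENSMUSG00000019768) lies on the plus strand of chromosome 10 from 4611593 to 5005614 in GRCm38, and Esr2 (ENSMUSG00000021055) on the minus strand of chromosome 12 from 76120419 to 76177259. Pgr (ENSMUSG00000031870) lies on the plus strand of chromosome 9 from 8899833 to 8968611 and Gper1 (ENSMUSG00000053647) on the plus strand of chromosome 5 from 139423151 to 139427800. Prlr (ENSMUSG00000005268) lies on the plus strand of chromosome 15 from 10177238 to 10349180. Its exons share 203 of 15339 bases with the predicted gene Gm21973 of the same strand, and reads from those bases cannot be assigned. The exons of the other receptor genes share no bases with another annotated gene. Counts are per gene, so the long and short forms of the prolactin receptor, or shorter forms of the estrogen receptors, cannot be told apart.

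Divided by exon length, Prlr had the highest level of the receptor genes in all 8 mice. Its median was 7.34 CPM per kb of exon, followed by Esr1 at 2.97, Gper1 at 1.93, Esr2 at 1.47 and Pgr at 0.524 CPM per kb. Prlr exceeded Esr1 in 8 of 8 mice, by at least 2.23 times. Esr1 exceeded Gper1 in 6 mice, and Gper1 exceeded Esr2 in 5 mice, so these neighbours did not differ beyond their spread between mice. Esr2 exceeded Pgr in 7 of 8 mice. Control 1 was the exception, since it had 0 counts for Esr2.

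**Figure D1:**
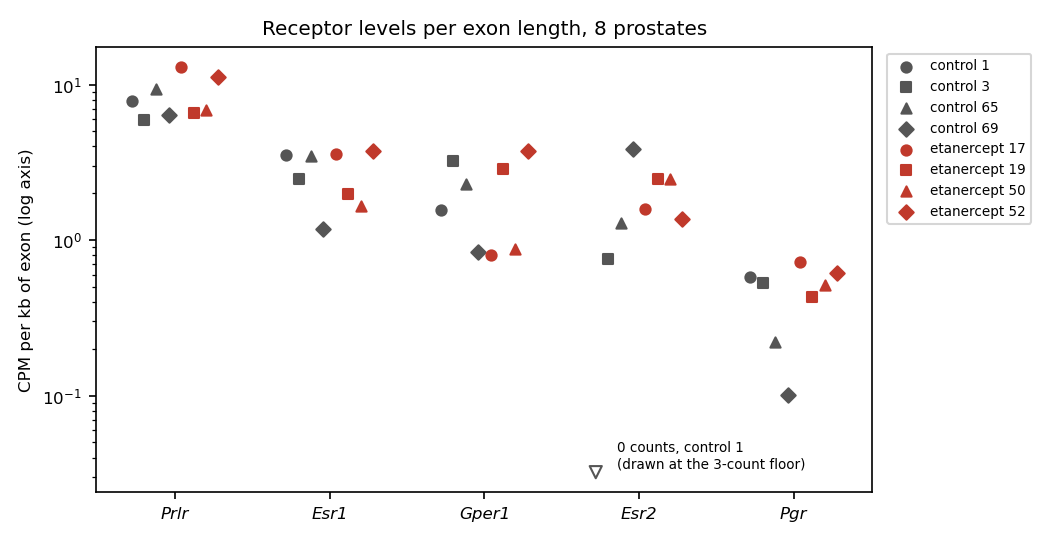
Expression of the 5 receptor genes per exon length in each of the 8 prostates, in CPM per kb of exon on a log axis, with control mice in grey and etanercept-treated mice in red. Prlr is highest in all 8 mice, and Esr2 in control 1, with 0 counts, is drawn as an open triangle at the level of 3 counts.

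Esr1, the gene of estrogen receptor alpha, was at 47.9 CPM in control 1, 33.8 in control 3, 47.4 in control 65 and 16.03 in control 69. It was at 49.04 CPM in etanercept 17, 27.2 in 19, 22.5 in 50 and 50.9 in 52. Levels near 50 CPM and levels near 20 CPM occurred in both groups, and the ranges overlapped almost fully. The means were 36.3 ± 15.0 CPM in control mice and 37.4 ± 14.7 CPM with etanercept (mean ± SD, n = 4 per group), with a log2 fold change of 0.043 (SE 0.38, adjusted p = 0.997 from edgeR). An exact two-sided permutation test on log2(CPM + 1) gave p = 0.857. The direction was not stable, as the log2 fold change was −0.11 after removal of the trend with gene length, −0.065 after removal of the trend with GC content and −0.36 without control 69 and etanercept 17.

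Esr2, the gene of estrogen receptor beta, had 0, 38, 62 and 223 counts in control 1, 3, 65 and 69, or 0, 2.53, 4.37 and 12.9 CPM. In etanercept 17, 19, 50 and 52 it had 92, 156, 140 and 66 counts, or 5.36, 8.34, 8.37 and 4.57 CPM. The control group held both the lowest and the highest level, and the etanercept-treated mice lay between them. Control 1 had the most counts of all libraries, and its 0 counts for Esr2 lie below a floor of 3 counts, or 0.108 CPM. The upper limit of the 95% Wilson interval was 1.53e-05% of its counts. The lowest share in the other mice was 0.00027% in control 3, with a 95% Wilson interval from 0.000197% to 0.00037%. These bounds reflect the error of counting alone.

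The coefficient of variation of Esr2 was 113% among control and 29.8% among etanercept-treated mice, with means of 4.95 ± 5.60 and 6.66 ± 1.98 CPM (± SD, n = 4 per group). The log2 fold change was 0.43 (SE 1.08, adjusted p = 0.986 from edgeR), and an exact two-sided permutation test gave p = 0.314. The value rested on control 1 and control 69. It was −0.0067 without control 1, 1.55 without control 69 and 1.65 without control 69 and etanercept 17, at adjusted p-values of at least 0.533 in edgeR over all settings.

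Pgr, the gene of the progesterone receptor and a well-known target of estrogen receptor alpha, had 136, 68, 27 and 15 counts in control 1, 3, 65 and 69, or 4.92, 4.53, 1.90 and 0.868 CPM. It had 106, 69, 74 and 76 counts in etanercept 17, 19, 50 and 52, or 6.17, 3.69, 4.42 and 5.27 CPM. Control 65 and control 69 were below all other mice, while control 1 and control 3 lay within the range of the etanercept-treated mice. The share of counts in control 69 was 7.95e-05% (95% Wilson interval from 4.82e-05% to 0.000131%). The means were 3.06 ± 1.98 CPM in control mice and 4.89 ± 1.07 CPM with etanercept (mean ± SD, n = 4 per group). The log2 fold change of 0.67 (SE 0.58, adjusted p = 0.889 from edgeR) was within the spread between mice, with p = 0.2 in an exact two-sided permutation test. Without control 69 and etanercept 17 the log2 fold change was 0.23.

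Gper1, the gene of the membrane receptor, was at 3.94, 8.20, 5.85 and 2.14 CPM in control 1, 3, 65 and 69. It was at 2.04, 7.27, 2.21 and 9.42 CPM in etanercept 17, 19, 50 and 52. The etanercept-treated mice formed a high and a low pair, and control mice lay at both of these levels. The means were 5.03 ± 2.598 and 5.24 ± 3.70 CPM (± SD, n = 4 per group), with a log2 fold change of 0.058 (SE 0.62, adjusted p = 0.997 from edgeR). An exact two-sided permutation test gave p = 0.886. Leaving out single mice moved the log2 fold change between −0.40, without etanercept 52, and 0.40, without control 3, and it was 0.074 without control 69 and etanercept 17.

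Prlr, the gene of the prolactin receptor, was at 120.1 CPM in control 1, 90.6 in control 3, 143 in control 65 and 98.3 in control 69. It was at 198 CPM in etanercept 17, 100.4 in 19, 104.9 in 50 and 173 in 52. Etanercept 17 and 52 were the highest of all mice, and the other etanercept-treated mice lay within the control range. The means were 113 ± 23.6 CPM in control mice and 144.1 ± 48.9 CPM with etanercept (mean ± SD, n = 4 per group), with a log2 fold change of 0.35 (SE 0.26, adjusted p = 0.859 from edgeR). An exact two-sided permutation test gave p = 0.286. The log2 fold change was 0.16 without etanercept 17, 0.19 after removal of the trend with gene length, 0.13 after removal of the trend with GC content and 0.097 without control 69 and etanercept 17.

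**Figure D2:**
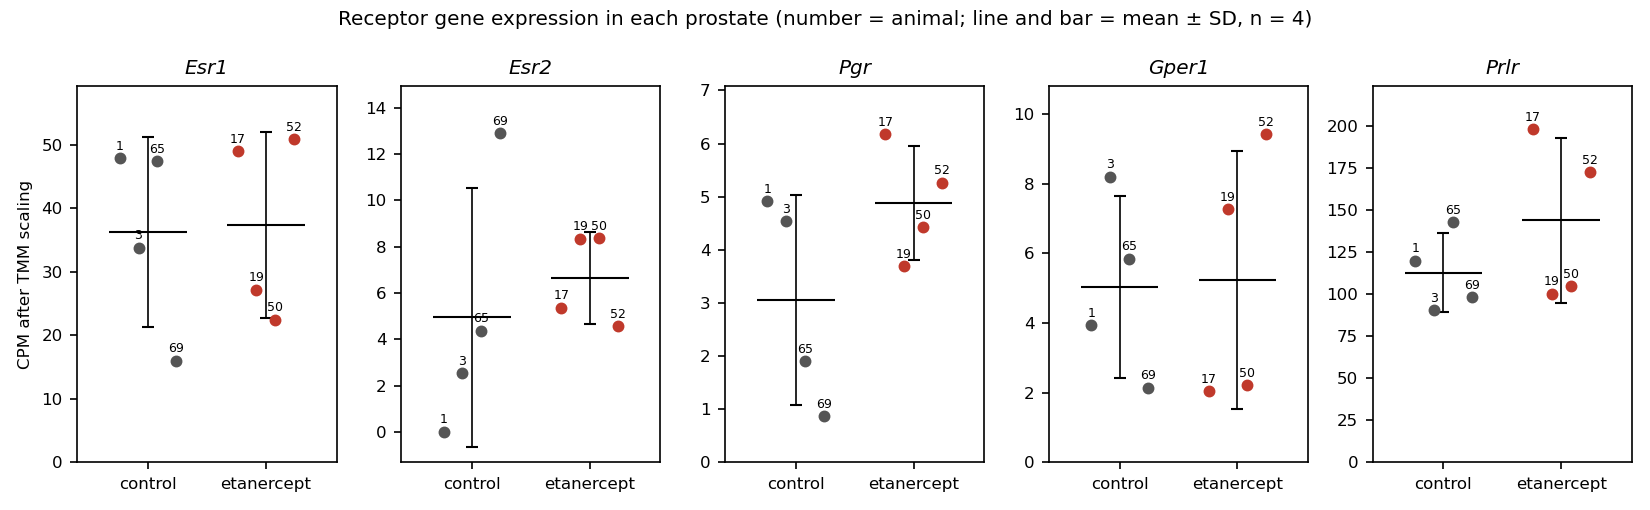
Expression of each receptor gene in CPM after TMM scaling, with 1 point per mouse labelled by animal number, a line at the mean and a bar of 1 SD (n = 4 per group). The groups overlap in all 5 panels, and Esr2 spans from 0 CPM in control 1 to 12.9 CPM in control 69.

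Within a mouse, ratios between receptor genes need no library scaling. For Esr1 to Esr2, the log2 ratio of counts per exon length was 9.35 in control 1, 1.70 in control 3, 1.41 in control 65 and −1.71 in control 69. It was 1.17 in etanercept 17, −0.32 in 19, −0.60 in 50 and 1.45 in 52. Estrogen receptor alpha transcripts were thus the more abundant per length in 5 mice and estrogen receptor beta transcripts in control 69, etanercept 19 and etanercept 50. Between the groups the ratio differed by −2.26 (2.69 ± 4.70 in control and 0.42 ± 1.03 with etanercept, SD), with p = 0.514 in an exact two-sided permutation test and 0.821 after adjustment over 10 pairs. The value of control 1 is set by 0 counts and the prior count of 0.5 and is no measured ratio. Without control 1 the difference was −0.043, and with a prior count of 2 it was −1.76. It was −3.73 without control 69 and −3.98 without control 69 and etanercept 17. The smallest p of the 10 ratios was that of Esr1 to Pgr, which was 3.06 ± 0.79 in control mice and 2.19 ± 0.39 with etanercept (± SD, n = 4 per group; exact permutation p = 0.114, adjusted p = 0.821).

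Across the 8 mice, Esr1 and Prlr had the highest Pearson correlation of the 10 pairs of receptor genes. Pearson's r of log2(CPM + 1) was 0.732 (exact permutation p = 0.0409, adjusted p = 0.342) and Spearman's rho was 0.786 (exact permutation p = 0.0279, adjusted p = 0.14). Without the 2 mice farthest from the median of Esr1, r was 0.797. By rank, Esr1 and Pgr were closest, with rho = 0.81 (exact permutation p = 0.0218, adjusted p = 0.14), but r was 0.597 (exact permutation p = 0.103, adjusted p = 0.342) and 0.156 without the 2 farthest mice. Esr1 and Esr2 were inversely related, with r = −0.641 (exact permutation p = 0.0752, adjusted p = 0.342), rho = −0.619 (exact permutation p = 0.115, adjusted p = 0.331) and r = −0.349 without the 2 farthest mice. With single mice left out, r lay between −0.753, without control 1, and −0.498, without control 69. No pair passed 0.05 after adjustment. Correlations within a treatment group were not computed, since 4 mice are too few.

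Esr1 and Esr2 were set beside 3 epithelial marker lists across mice. Summed over 6 basal epithelium markers, of which Krt15 was the most abundant, expression was 495, 383, 356 and 223 CPM in control 1, 3, 65 and 69. It was 303, 221, 202 and 312 CPM in etanercept 17, 19, 50 and 52. Mice with a high basal sum had little Esr2. Pearson's r was −0.916 (exact permutation p = 0.000521, adjusted p = 0.0365 over 70 relations of receptor genes to marker lists), and it lay between −0.94 and −0.904 when each mouse was left out in turn. Spearman's rho was −0.929 (exact permutation p = 0.00223), with an adjusted p of 0.156 that did not pass the threshold. Without the 2 mice farthest from the median basal sum, r was −0.941, and without control 69 and etanercept 17 it was −0.91. Both measures come from the same libraries and share their scaling, and whether this contributed was not tested.

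For Esr1 the relation to the basal sum had the opposite sign, with r = 0.745 (exact permutation p = 0.0395, adjusted p = 0.345) and rho = 0.548 (exact permutation p = 0.171, adjusted p = 0.52), and it was 0.706 without the 2 farthest mice. With the prostate secretory epithelium list, in which Sbp had the highest mean, Esr1 had an r of −0.842 (exact permutation p = 0.011, adjusted p = 0.257) and a rho of −0.738 (exact permutation p = 0.0458, adjusted p = 0.415). Esr2 had an r of 0.738 (exact permutation p = 0.02, adjusted p = 0.314) and a rho of 0.833 (exact permutation p = 0.0154, adjusted p = 0.269) with that list. Without the 2 farthest mice these r values were −0.86 for Esr1 and 0.782 for Esr2. None of these relations passed 0.05 after adjustment. With the luminal epithelium list, Esr1 had an r of −0.0817 (exact permutation p = 0.844, adjusted p = 0.933; rho = −0.167) and Esr2 an r of 0.237 (exact permutation p = 0.576, adjusted p = 0.876; rho = 0.167). In bulk tissue, fewer cells of a type and less RNA per cell cannot be told apart.

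**Figure D3:**
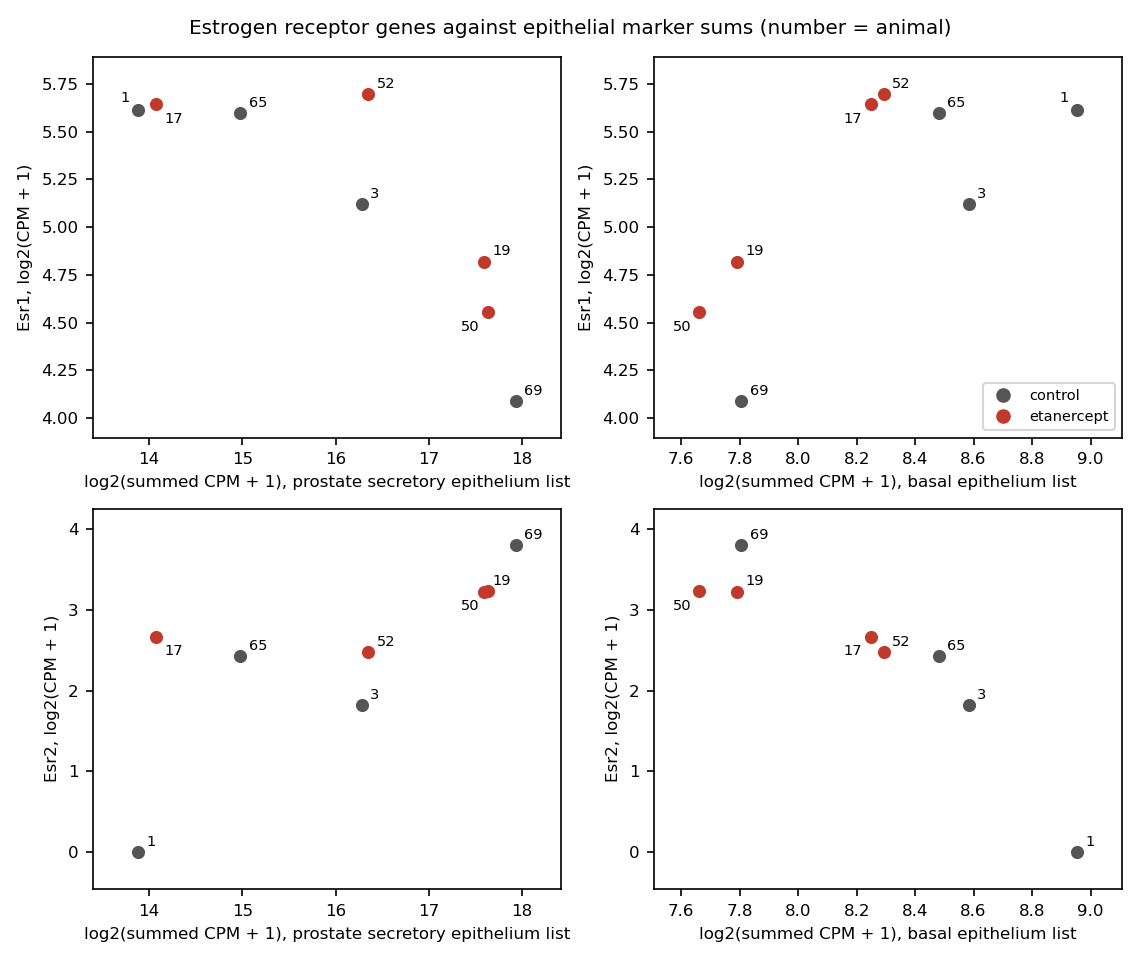
Levels of Esr1 and Esr2, as log2(CPM + 1), against the summed expression of the prostate secretory and basal epithelium lists, as log2(summed CPM + 1), in 8 mice labelled by animal number. Esr2 is lower in mice with a higher basal sum (r = −0.916), and Esr1 in mice with a higher secretory sum (r = −0.842).

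The Sbp level was added to the edgeR fit as a covariate after its spread had been seen. With it, the log2 fold changes of Esr1, Esr2, Pgr and Prlr were 0.21, 0.87, 0.86 and 0.39, and that of Gper1 was −0.088. The smallest adjusted p of the receptor genes in this edgeR fit was 0.556, that of Prlr.

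Esr1 was also inversely related to a urothelium list, with r = −0.868 (exact permutation p = 0.0066, adjusted p = 0.231) and rho = −0.905 (exact permutation p = 0.00456, adjusted p = 0.16), and r was −0.789 without the 2 farthest mice. For Pgr and this list r was −0.745 (exact permutation p = 0.0269, adjusted p = 0.314) and rho −0.881 (exact permutation p = 0.00724, adjusted p = 0.169), but r was −0.417 without the 2 farthest mice. Esr2 had the opposite sign, with r = 0.701 (exact permutation p = 0.0388, adjusted p = 0.345) and rho = 0.69 (exact permutation p = 0.0694, adjusted p = 0.415), and r was 0.879 without the 2 farthest mice. The most abundant gene of this list was Upk1a, of a uroplakin of the bladder lining, which was at between 29.7 CPM in etanercept 17 and 627 CPM in control 69. Upk1b, another uroplakin gene, ran the other way, with 110.8 CPM in etanercept 17 and 17.4 CPM in control 69, so the relation of the list does not hold for each of its markers. Krt20 had 0 counts in 6 mice and Upk3a and Upk3b had 0 counts in 4 mice each. Gper1 was inversely related to the seminal vesicle list (r = −0.781, exact permutation p = 0.0254, adjusted p = 0.314; rho = −0.762, exact permutation p = 0.0368, adjusted p = 0.415), but r was −0.548 without control 69 and etanercept 17. Esr2 was inversely related to the T cell list (r = −0.686, exact permutation p = 0.0485, adjusted p = 0.377; rho = −0.667, exact permutation p = 0.0831, adjusted p = 0.415), and r was −0.351 without the 2 farthest mice. Of the 70 relations, 9 had an exact permutation p of at most 0.05 before adjustment, and 1, that of Esr2 to the basal list, did after it.

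Adjusted p-values of the 14 marker lists were at least 0.3 in exact two-sided permutation tests, whose smallest possible p of 0.0286 does not let a single list pass over 14. Smooth muscle genes, led by Acta2, summed to 6001 ± 1759 CPM in control mice and 10957 ± 3138 CPM with etanercept (mean ± SD, n = 4 per group). Adipocyte genes, led by Cfd, were at 330 ± 296 and 55.6 ± 12.8 CPM, without overlap of the groups and at that smallest exact p. In edgeR, with an unadjusted p of 0.05 or less, 4 of 7 smooth muscle and 1 of 8 luminal genes were higher and 5 of 7 adipocyte, 3 of 7 macrophage, 3 of 6 T cell, 2 of 6 B cell and plasma cell, 2 of 6 skeletal muscle and 2 of 6 basal epithelium genes were lower. The basal sum was 364 ± 112 and 259 ± 56.5 CPM (exact permutation p = 0.143). Macrophage genes, led by C1qa, were at 532 ± 294 and 285 ± 45.4 CPM. T cell genes, led by Cd4, were at 87.5 ± 32.6 and 48.7 ± 8.83 CPM, and B cell and plasma cell genes, led by Jchain, at 1874 ± 1667 and 543 ± 274 CPM. Luminal genes, led by Cd24a, were at 3847 ± 469 and 3701 ± 219 CPM, but Cd24a itself had means of 678 and 1119 CPM and Krt18 of 868 and 611 CPM. Fibroblast genes, led by Dcn, were at 657 ± 310 and 757 ± 217 CPM. Endothelial (led by Pecam1) and nerve genes (Mbp) had group means of 81.6 and 58.4 CPM and of 155 and 189 CPM. The skeletal muscle sum of 673 and 943 CPM was mostly Acta1, at 427 and 916 CPM, and the other 7 genes of that list had lower means with etanercept and were highest in control 3. Their part in the receptor levels was not tested beyond the correlations given here.

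Prl and Gh, the genes of prolactin and growth hormone, were not detected in the prostates. They had 0 counts in all 8 mice, which allows at most 0.211 CPM in the library with the highest floor. Cyp19a1, the gene of aromatase, which makes estrogens from androgens, also had 0 counts in all 8 mice. So did Hsd3b1 and Hsd17b2, genes of steroid dehydrogenases. Of 17 genes of estrogen synthesis and metabolism, 16 were found in the annotation and 9 were tested. With an unadjusted p of 0.05 or less in edgeR, 1 was higher and 1 was lower with etanercept. Cyp1b1, whose enzyme hydroxylates estrogens, was at 19.9, 31.3, 19.4 and 13.9 CPM in control 1, 3, 65 and 69 and at 45.0, 28.8, 36.9 and 39.4 CPM in etanercept 17, 19, 50 and 52. Only control 3 lay within the range of the etanercept-treated mice (log2 fold change 0.83, SE 0.26, adjusted p = 0.739 from edgeR). Sult1a1, the gene of a sulfotransferase, had a log2 fold change of −0.997 (SE 0.43, adjusted p = 0.743 from edgeR), and the groups overlapped. The count of lower genes was not stable. It was 0 without control 1, control 3 or etanercept 17, 50 or 52, and without control 69 and etanercept 17 together.

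Among the other nuclear receptors, 0 of 5 tested genes passed the unadjusted threshold in edgeR, nor did any of 7 tested membrane progesterone receptor genes. Of 24 tested coregulators of steroid receptors, 0 were higher and 3 were lower with an unadjusted p of 0.05 or less in edgeR. Among them were Safb, which represses estrogen receptor activity, and Prmt1, an arginine methyltransferase, with log2 fold changes of −0.53 and −0.44. The count of 3 was not stable, as it was 0 without control 1, control 65 or etanercept 19, 50 or 52 and 5 without control 3 or control 69. Of 12 chaperones, 0 were higher and 1 was lower, Ppid, a cyclophilin of the receptor complex with HSP90 (log2 fold change −0.73, SE 0.26, adjusted p = 0.739 from edgeR). This lower count was 0 without control 65, etanercept 19 or etanercept 50, and 2 without control 3 or control 69.

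Of 19 tested estrogen-responsive genes, 0 were higher and 1 was lower with an unadjusted p of 0.05 or less in edgeR, and the median log2 fold change was −0.16, beside −0.0099 over all tested genes. The gene was Wnt4, a secreted ligand that acts downstream of progesterone and estrogen in the uterus and mammary gland. It was at 60.6, 38.9, 51.1 and 57.6 CPM in control 1, 3, 65 and 69 and at 36.2, 34.6, 32.9 and 27.4 CPM in etanercept 17, 19, 50 and 52. All control mice lay above all etanercept-treated mice (log2 fold change −0.67, SE 0.18, adjusted p = 0.739 from edgeR). Greb1, a coactivator and classical target of estrogen receptor alpha, was at 8.64, 2.80, 6.20 and 0.637 CPM in control 1, 3, 65 and 69 and at 9.96, 7.11, 3.65 and 11.9 CPM in etanercept 17, 19, 50 and 52. The groups overlapped for Greb1. The estrogen-responsive genes Tff1 and Sprr2f had 0 counts in all mice.

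Of 13 tested progesterone-responsive genes, 1 was higher and 1 was lower at the same threshold. Ptch1, the receptor of hedgehog ligands, had a log2 fold change of 0.51 (SE 0.20, adjusted p = 0.739 from edgeR), and Dusp1, a phosphatase of MAP kinases, had −0.98 (SE 0.36, adjusted p = 0.739 from edgeR). Neither count was stable. The higher count was 0 without control 1, control 69, etanercept 17 or etanercept 52, and the lower count was 0 without control 3 or etanercept 19. Of 17 genes coupled to GPER1, 2 were higher and 0 were lower, and both encode inhibitory G protein subunits. Gnai1 was at 35.7, 38.3, 30.3 and 30.3 CPM in control 1, 3, 65 and 69 and at 45.5, 52.1, 46.3 and 58.8 CPM in etanercept 17, 19, 50 and 52. All etanercept-treated mice lay above all control mice, as they also did for Gnai3 (111 ± 17.2 against 157 ± 22.6 CPM, ± SD, n = 4 per group). The log2 fold changes were 0.59 and 0.50 (SE 0.16 and 0.18, with an adjusted p = 0.739 from edgeR for each). Gnai2, of the same gene family, ran the other way, at 462 ± 74.4 CPM in control mice and 411 ± 67.8 CPM with etanercept (± SD). Its log2 fold change was −0.17 (SE 0.20, adjusted p = 0.934 from edgeR), and the groups overlapped. The count of 2 higher genes fell to 1 without control 1 or etanercept 19.

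**Figure D4:**
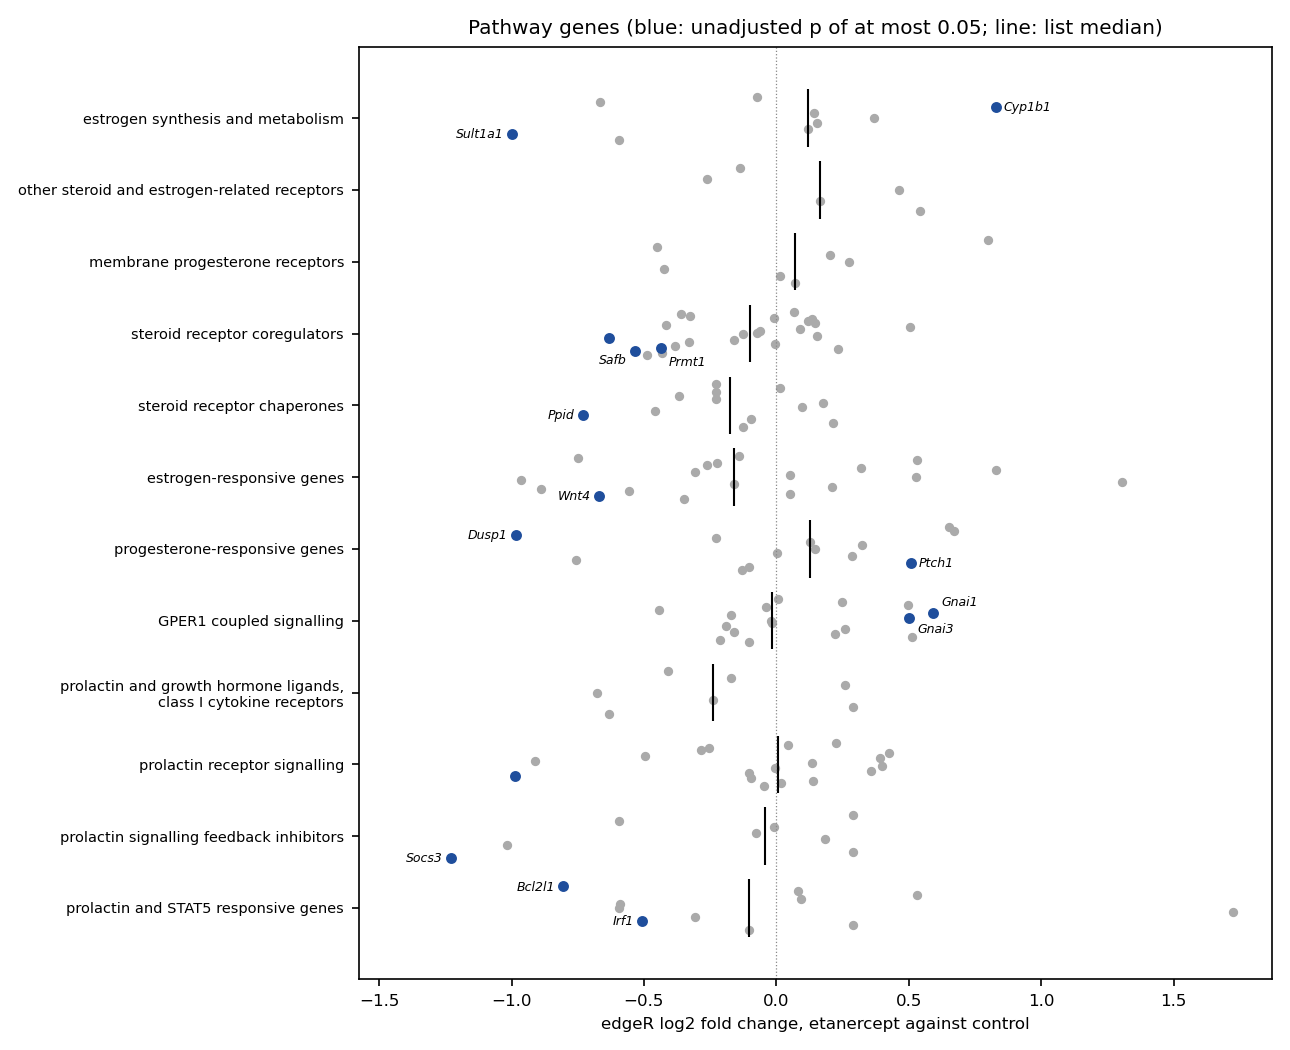
edgeR log2 fold changes of the tested genes of 12 pathway lists, with genes that have an unadjusted p of 0.05 or less in blue and named where the text describes them, the others in grey, and a black line at each list's median. At that threshold 4 genes lie on the higher and 11 on the lower side.

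On the prolactin side, 0 of 7 tested ligand and class I cytokine receptor genes passed the unadjusted threshold, and Ghr, the gene of the growth hormone receptor, was at 31.9 ± 7.97 and 28.3 ± 12.8 CPM (± SD, n = 4 per group). Jak2, Stat5a and Stat5b, the core of prolactin receptor signalling, had log2 fold changes of 0.39, 0.14 and 0.016. Their groups overlapped.

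Of 8 feedback inhibitors, 0 were higher and 1 was lower with an unadjusted p of 0.05 or less in edgeR. Socs3, which blocks cytokine receptors including the prolactin receptor, was at 12.9, 18.9, 16.6 and 10.8 CPM in control 1, 3, 65 and 69 and at 4.60, 7.27, 7.23 and 6.10 CPM in etanercept 17, 19, 50 and 52. All control mice lay above all etanercept-treated mice (log2 fold change −1.23, SE 0.29, adjusted p = 0.739 from edgeR). Of 11 tested prolactin and STAT5 responsive genes, 0 were higher and 2 were lower, Bcl2l1, which encodes the survival protein BCL-XL, and Irf1, a transcription factor induced by interferon, with log2 fold changes of −0.80 and −0.51. For Bcl2l1 the groups did not overlap (147 ± 26.3 against 84.2 ± 25.0 CPM, ± SD, n = 4 per group). The milk protein gene Wap and Pip, the gene of prolactin-induced protein, had 0 counts in all mice.

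Over all 141 tested list genes, 4 were higher and 11 were lower with an unadjusted p of 0.05 or less in edgeR. These were 2.84% higher and 7.80% lower, beside 2.99% and 3.63% of all tested genes, and the excess on the lower side was not tested. After adjustment 0 passed. The groups did not overlap for 3 of the 141 in the higher and 4 in the lower direction. Over all tested genes this held for 2.41% and 2.53%. Without control 69 and etanercept 17, 18 list genes were higher and 18 were lower, or 12.9% each, beside 8.20% and 8.30% of all tested genes in that fit. Socs3, Wnt4, Bcl2l1 and Gnai1 kept an edgeR p of at most 0.0397 before adjustment when each mouse, or control 69 and etanercept 17 together, was left out.

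The receptor genes were also set beside 9 partner and target genes across the 8 mice, a comparison added after the values had been seen, with 45 relations in all. Socs2, a STAT5 target that limits growth hormone and prolactin signals, followed Esr1, with r = 0.973 (exact permutation p = 0.000124, adjusted p = 0.00335) and rho = 0.976 (exact permutation p = 0.000397, adjusted p = 0.0179). It was at 48.6, 30.1, 36.7 and 9.14 CPM in control 1, 3, 65 and 69 and at 63.5, 19.8, 18.2 and 50.8 CPM in etanercept 17, 19, 50 and 52. Socs2 was high where Esr1 was high and lowest in control 69, in both groups alike. Stat5b also followed Esr1, with r = 0.965 (exact permutation p = 0.000149, adjusted p = 0.00335) and rho = 0.929 (exact permutation p = 0.00223, adjusted p = 0.0335). Without the 2 mice farthest from the median of the partner gene, r was 0.969 for Socs2 and 0.948 for Stat5b.

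Prlr had its highest r among the partner genes with Stat5a, at r = 0.864 (exact permutation p = 0.00774, adjusted p = 0.0696), rho = 0.81 (exact permutation p = 0.0218, adjusted p = 0.098) and r = 0.828 without the 2 farthest mice. Its highest rho was with Greb1, at 0.833 (exact permutation p = 0.0154, adjusted p = 0.098), and Stat5a had a higher r with Esr1, at 0.895 (exact permutation p = 0.00437, adjusted p = 0.0655). Greb1 followed Esr1 with r = 0.856 (exact permutation p = 0.00742, adjusted p = 0.0696) and rho = 0.881 (exact permutation p = 0.00724, adjusted p = 0.0815), and r was 0.797 without the 2 farthest mice and 0.645 without control 69 and etanercept 17. Fkbp5, a cochaperone induced by steroid hormones, was inversely related to Esr1, with r = −0.832 (exact permutation p = 0.00975, adjusted p = 0.0731) and rho = −0.833 (exact permutation p = 0.0154, adjusted p = 0.098), and r was −0.9 without the 2 farthest mice. It ranged from 68.8 CPM in etanercept 17 to 619 CPM in control 69. Cish, another feedback inhibitor, was inversely related to Pgr, with rho = −0.952 (exact permutation p = 0.00114, adjusted p = 0.0257) and r = −0.822 (exact permutation p = 0.0121, adjusted p = 0.0775), and r was −0.859 without the 2 farthest mice.

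Of all 15471 other tested genes, the genes closest to Esr1 in their pattern over the 8 mice were Plekhs1, which encodes a pleckstrin homology protein, Ace and C1s2, which encodes a complement protease, with r of 0.994, 0.993 and 0.992 and rho of 0.929, 1 and 0.905. Ace, the gene of angiotensin-converting enzyme, was at 459, 313, 454 and 177 CPM in control 1, 3, 65 and 69 and at 487, 278, 228 and 540.1 CPM in etanercept 17, 19, 50 and 52. It ranked all 8 mice in the order of Esr1 (exact permutation p of r = 2.48e-05, the smallest that 40320 pairings can give). After adjustment over all genes the p-values of these r values were 0.0731, and 0 genes passed 0.05.

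The genes closest to Esr2 were Snd1, an RNA nuclease, Sec63, a part of the protein import of the endoplasmic reticulum, and Abca3, a lipid transporter, with r of 0.991, 0.988 and 0.985 and rho of 0.929, 0.976 and 0.905. For Pgr they were the DNA junction resolvase gene Gen1, the calcium pump gene Atp2b3 and the nucleoside transporter gene Slc29a2 (r of 0.968, 0.961 and 0.961, rho of 0.929, 0.929 and 0.786). For Gper1 they were Pglyrp2, whose protein cleaves bacterial peptidoglycan, Nprl3, an inhibitor of mTORC1 signalling, and the predicted gene Gm38300 (r of 0.959, 0.937 and 0.927, rho of 0.97, 0.929 and 0.881). The genes closest to Prlr were the long noncoding RNA Gm20707, Dock4, an activator of the GTPase Rac, and Lins1, linked to WNT signalling, with r of 0.99, 0.981 and 0.97 and rho of 0.929, 0.976 and 0.952. Exact permutation p-values of these r values were at most 0.003, but adjusted over all genes they were at least 0.0914, and 0 genes passed 0.05 for any receptor gene. Without the 2 mice farthest from the median of the receptor gene, r stayed at or above 0.858 for all of these genes except Atp2b3 at 0.705 and Slc29a2 at 0.533, whose relation to Pgr rested on those mice. Each of the 15 genes lies on another chromosome than the receptor gene it resembles.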

How the data were processed

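Libraries of poly(A)-enriched RNA from 4 control and 4 etanercept-treated prostates had been sequenced as paired reads. Per the submitters' processing notes, reads were trimmed with fastp, mapped to mm10 with STAR 2.6.1d and counted with featureCounts 1.5.0-p3, and DESeq2 1.26.0 was used for testing. The authors deposited whole-number counts per gene and mouse without normalization, and whether the counting used strand is not given in the sources used here. All 8 columns were matched to mice by group letter and animal number. Genes were named with GENCODE M21 (GRCm38); 37 identifiers were not in it and held 0.00429% of all counts.

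Tests used edgeR 4.0.16 under R 4.3.3, TMM factors, filterByExpr with a minimum count of 10 and quasi-likelihood tests with Benjamini-Hochberg adjustment over 15472 genes; this code was tested on simulated data. Single values and ratios were compared by exact two-sided permutation over all 70 assignments of the 8 mice, whose smallest p is 0.0286. Ratios used a prior count of 0.5. Correlations used exact permutation over 40320 pairings (numpy 2.4.6, scipy 1.17.1). Total counts of 13760669 to 25178942 per mouse and a floor of 3 counts set the depth limit.

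The receptor genes and the gene and marker lists were chosen with earlier results of these data known. Named are the receptor genes, up to 4 genes per list with the smallest p and fixed ligand, partner and target genes. Each marker list's most abundant gene and, per receptor gene, the 3 tested genes with the highest r are also named. Of the list genes named by p, most of those with an unadjusted p of 0.05 or less are described. Gnai2, genes at 0 counts and marker genes beyond the most abundant were named after the values were seen. Alternatives were DESeq2 1.42.0, other scaling factors, filters, thresholds, a robust fit, removal of length or GC trends, animal number (below 20 or above 49) as a term, and leaving out each mouse. Added after the data were seen were the Sbp level as a covariate, leaving out control 69 and etanercept 17 together, and the relations to partner genes.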

Additional observations from a re-analysis of the deposited data

Results flagged for a closer look

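In the receptor genes, their ratios and the 14 marker sums, each group of 4 mice was searched for a single mouse far from the other 3, 58 groups in all, of which chance marks about 1 in 20. None of the receptor genes or ratios had such a mouse. The summed expression of the seminal vesicle genes did in both groups, at 4001 CPM in control 69, where the next control mouse had 27.0 CPM, and at 97204 CPM in etanercept 17, where the next etanercept-treated mouse had 668 CPM.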

How the results depend on the processing

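No paired analysis was possible because the groups share no animal numbers. edgeR called 0 genes under every other scaling, filter, covariate and left-out mouse tried and at an adjusted p of at most 0.1, whereas DESeq2 called 21 and an unadjusted p of 0.05 or less gave 1024. No receptor gene passed an adjusted p of 0.05 in any fit. The log2 fold changes of Pgr and Prlr were positive in all of them. That of Esr1 was −0.065 without the GC trend, −0.11 without the length trend and −0.36 without control 69 and etanercept 17, and lay between −0.20 and 0.22 with single mice left out. That of Gper1 was −0.088 with Sbp as a covariate and between −0.40 and 0.40 with single mice left out, and that of Esr2 between −0.0067 and 1.55. Esr2 gave no value with at least 10 counts required in every mouse.

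Of 100 recomputed differences in ratios, 94 kept their sign and none passed 0.05 after adjustment. With single mice left out, Esr1 to Gper1 lay between −0.33 and 0.56 (−0.33 also without control 69 and etanercept 17), Esr2 to Pgr between −0.98 and 3.0, Esr2 to Prlr between −0.051 and 3.21 and Gper1 to Prlr between −0.82 and 0.11. List genes with an unadjusted p of 0.05 or less were 8 higher with Sbp as a covariate, 18 higher and 18 lower without control 69 and etanercept 17, and between 3 and 10 higher and between 6 and 18 lower with single mice left out. With single mice left out, the highest counts were those without control 69. The causes were not tested. Among receptor genes with counts, the fewest were the 15 of Pgr in control 69.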
